A study of Homo sapiens with 9 samples.

Results

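Aldo-keto reductases are NADPH-dependent enzymes that reduce aldehydes and ketones to alcohols. *AKR1A1*, *AKR1B1*, *AKR1B10* and *AKR1B15* encode aldehyde and aldose reductases, *AKR1C1*, *AKR1C2* and *AKR1C3* encode hydroxysteroid dehydrogenases, and *AKR7A2* encodes a reductase of succinic semialdehyde and of other toxic aldehydes. In the kidney the best known of them is aldose reductase, which turns glucose into sorbitol, an osmolyte of medullary cells, while several *AKR1C* and *AKR1B* genes are known targets of the oxidative stress factor NRF2.

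The 8 genes were taken from the 28395 genes of the count table by the NCBI gene ID that pairs with each symbol, and all 8 were listed. Transcripts were counted in 9 RNA-seq libraries from 3 human cell lines, 3 libraries each: HK2, an immortalised line of proximal tubule cells, 786-O, a clear cell renal cell carcinoma line, and a line derived from 786-O that is labelled as metastatic and is called the metastatic line here. All cells had been grown in Plasmax, a medium that mimics human plasma, with no further treatment. The comparisons ask how the enzymes differ between tubule cells and carcinoma cells, and between the parental and the metastatic carcinoma line. Each line stands for its condition alone, and the libraries came from parallel dishes, so p-values measure the spread between dishes and not between tumours or donors.

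The libraries held between 30212291 and 45362428 counts, and 3 counts, taken as the floor of detection, correspond to 0.0647 to 0.0961 CPM (counts scaled to library size by TMM). Replicates differed little: the biological coefficient of variation over the genes tested was 3.94%. Of 10 kidney epithelial markers, 10 passed the floor in every HK2 library and 9 in every library of each carcinoma line, all but *CDH1*. Of 11 genes of proximal tubule function, 7 passed the floor in every library of HK2 and of 786-O. In the metastatic line 6 did. The sum over the 11 was 109 to 114 CPM in HK2, 192 to 198 in 786-O and 107 to 119 in the metastatic line. Among them *LRP2*, *SLC22A6* and *SLC22A8* had 0 counts in all 9 libraries. Of 4 genes known from metastatic derivatives of 786-O, *CXCR4*, *CYTIP*, *LTBP1* and *SLAMF8*, all passed the floor in every library of the metastatic line, where their sum was 85.3 to 88.2 CPM beside 10.5 to 13.9 CPM in 786-O. The leukocyte markers *PTPRC* and *CD3E* also had 0 counts in all libraries, while the third, *CD14*, passed the floor in every HK2 and 786-O library, with a sum over the 3 of 0.352 to 0.453 CPM in HK2, 0.0943 to 0.292 in 786-O and 0.0529 to 0.334 in the metastatic line; none of 3 endothelial markers passed the floor in any line. The summed level of the 3 fibroblast markers *COL1A1*, *DCN* and *PDGFRB* was 54.1 to 63.0 CPM in HK2, 263 to 331 in 786-O and 298 to 301 in the metastatic line, with *DCN* under the floor in both carcinoma lines; the part of this difference in the results was not tested.

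*AKR1A1* (chr1:45550543-45570049, plus strand, 9 exons) and *AKR7A2* (chr1:19303965-19312144, minus strand, 7 exons) lie apart on chromosome 1. The *AKR1B* genes lie together on chromosome 7, with *AKR1B1* at chr7:134442356-134459284 (minus strand, 10 exons), *AKR1B10* at chr7:134527567-134541412 (plus strand, 10 exons) and *AKR1B15* at chr7:134549110-134579875 (plus strand, 12 exons). The *AKR1C* genes lie together on chromosome 10, with *AKR1C1* at chr10:4963253-4983283 (plus strand), *AKR1C2* at chr10:4987775-5018031 (minus strand) and *AKR1C3* at chr10:5035354-5107686 (plus strand), each with 9 exons (GRCh38, GENCODE 44). No other gene of the count table overlapped any of the 8 by its RefSeq position on GRCh38.p14.

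The *AKR1C* sequences are so alike that short reads can match several of them, so a stretch of exon 2 is shown in which *AKR1C1* and *AKR1C2* differ most. Capitals in the first 2 lines mark the bases at which *AKR1C1* and *AKR1C2* differ from each other, and in the other 2 lines the bases that differ from *AKR1C1*. The stretches are read 5′ to 3′ on the coding strand from GRCh38, at chr10:4965932-4965991 (plus), chr10:5001604-5001663 (minus), chr10:5096428-5096487 (plus) and chr10:5200199-5200258 (plus).
*AKR1C1*: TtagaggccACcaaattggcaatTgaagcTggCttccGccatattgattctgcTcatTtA
*AKR1C2*: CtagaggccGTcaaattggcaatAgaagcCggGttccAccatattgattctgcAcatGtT
*AKR1C3*: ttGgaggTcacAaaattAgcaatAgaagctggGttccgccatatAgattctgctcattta
*AKR1C4*: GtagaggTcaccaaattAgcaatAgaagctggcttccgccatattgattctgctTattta

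These 60 bases hold 10 of the 19 differences between the 969 coding bases of *AKR1C1* and *AKR1C2*, which are 98.0% identical. *AKR1C3* was 91.4% identical to *AKR1C1* and 91.0% identical to *AKR1C2*. Of all windows of 75 bases, the length of the sequencing kit, 35.5% in the coding sequence of *AKR1C1*, 40.8% in that of *AKR1C2* and 15.3% in that of *AKR1C3* occurred unchanged in a transcript of another gene. How reads that match several genes were counted is not given in the sources used here, so the split of counts among these 3 genes is uncertain, and their sum is given beside them.

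For the *AKR1B* genes a stretch is shown that was picked where *AKR1B10* and *AKR1B15* differ most. It lies in *AKR1B10* (chr7:134530685-134530744, plus strand, exon 2), *AKR1B15* (chr7:134568200-134568259, plus strand, exon 4) and *AKR1B1* (chr7:134451652-134451711, minus strand, exon 2). Capitals mark the differences between *AKR1B10* and *AKR1B15* in the first 2 lines and the bases that differ from *AKR1B10* in the last.
*AKR1B10*: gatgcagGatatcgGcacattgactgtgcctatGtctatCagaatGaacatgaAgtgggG
*AKR1B15*: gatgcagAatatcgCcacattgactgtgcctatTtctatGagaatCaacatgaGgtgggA
*AKR1B1*: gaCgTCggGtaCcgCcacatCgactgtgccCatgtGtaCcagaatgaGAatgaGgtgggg

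*AKR1B10* and *AKR1B15* were 92.0% identical over their aligned coding bases, and 12.9% and 7.52% of their windows were shared with other genes. *AKR1B1* was 76.7% identical to *AKR1B10* and, like *AKR1A1*, shared none of its windows. In *AKR7A2* 5.48% of the windows were shared, with *AKR7A3* and *AKR7L*.

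Levels were compared between genes as CPM per kb of coding length. *AKR1B1* was the most abundant member in each line, at 607 ± 29.6 CPM per kb in HK2, 338 ± 9.21 in 786-O and 621 ± 21.0 in the metastatic line (SD, n = 3). It took 82.3%, 71.6% and 80.9% of all counts of the 8 genes in HK2, 786-O and the metastatic line, as means of 3 libraries. *AKR1A1* and *AKR7A2* followed, at 54.5 ± 2.74 and 52.1 ± 2.76 CPM per kb in HK2, where their libraries overlapped. In 786-O and the metastatic line the libraries of *AKR1A1* lay above those of *AKR7A2*, at 68.0 ± 2.88 against 51.7 ± 0.601 and at 78.0 ± 2.25 against 55.6 ± 2.44 CPM per kb.

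Behind these came *AKR1C3*, *AKR1C1* and *AKR1B10*, in this order in HK2 and 786-O and in another in the metastatic line. In HK2 they stood at 11.9 ± 0.927, 2.19 ± 0.415 and 0.503 ± 0.0468 CPM per kb of coding length, with no overlap between them, and in 786-O at 3.87 ± 0.569, 1.04 ± 0.139 and 0.674 ± 0.186, also with none. In the metastatic line *AKR1B10* was at 1.59 ± 0.234 and *AKR1C3* at 1.29 ± 0.178 CPM per kb, with overlapping libraries, and *AKR1C1* was at 0.266 ± 0.0353. Per kb of the whole canonical transcript, which is 6543 bases long for *AKR1C1*, 5 pairs of neighbours changed places. *AKR7A2* then stood above *AKR1A1* in HK2 (41.3 against 37.8 CPM per kb, overlapping), *AKR1B10* above *AKR1C1* in 786-O (0.395 against 0.154) and *AKR1C3* above *AKR1B10* in the metastatic line (1.06 against 0.932, overlapping). The scarce *AKR1B15* stood above *AKR1C2* in HK2 (0.0378 against 0.0263) and above *AKR1C1* in the metastatic line (0.0873 against 0.0395), with overlapping libraries in both cases. *AKR1C2* and *AKR1B15* were last, or next to last, by coding length in every line, and their libraries overlapped each other.

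**Figure D1:**
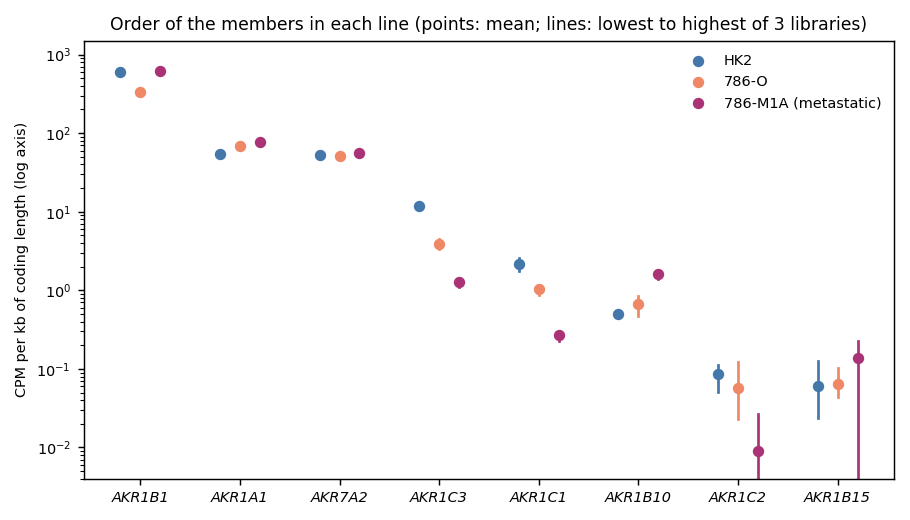
CPM per kb of coding length (log axis) of the 8 genes in the 3 lines, with points for the mean and lines from the lowest to the highest of 3 libraries; a line that reaches the lower edge has a library at 0. *AKR1B1* stands above all other members in every line, in HK2 by 607 against 54.5 for *AKR1A1*, and *AKR1B10* passes *AKR1C3* in the metastatic line by its mean of 1.59 against 1.29.

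*AKR1B1* encodes aldose reductase, the first enzyme of the polyol pathway. Its libraries held 583, 599 and 544 CPM in HK2, 331, 318 and 314 CPM in 786-O, and 610.1, 571 and 585 CPM in the metastatic line. The 786-O libraries lay below all others, and those of HK2 and the metastatic line overlapped. In bulk RNA, fewer cells that express a gene and less of its RNA per cell cannot be told apart. The level was 1.79-fold lower in 786-O than in HK2 (log2 fold change −0.84 ± 0.04 SE, adjusted p = 2.01e-14, edgeR quasi-likelihood test with Benjamini-Hochberg adjustment over 12695 genes) and 1.83-fold higher in the metastatic line than in 786-O (0.88 ± 0.04, adjusted p = 9.01e-14). Between the metastatic line and HK2 the difference was 0.03 ± 0.04 (adjusted p = 0.436), and its sign turned under upper-quartile scaling and without HK2 replicate 3. Of the genes tested, 11.2% were called lower in 786-O than in HK2 and higher in the metastatic line than in 786-O; the 786-O libraries enter both comparisons. By its log2 fold change, *AKR1B1* ranked at place 353 of 12695 genes in the metastatic line against 786-O.

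*AKR1A1* encodes aldehyde reductase, which reduces glucuronate among other substrates. It stood at 53.0, 55.8 and 50.5 CPM in HK2, 69.0, 63.4 and 66.6 CPM in 786-O, and 78.1, 73.8 and 76.2 CPM in the metastatic line. The 3 lines did not overlap and followed each other in the order HK2, 786-O and the metastatic line. The level was 1.25-fold higher in 786-O than in HK2 (log2 fold change 0.32 ± 0.05, adjusted p = 1.80e-06, edgeR), 1.43-fold higher in the metastatic line than in HK2 (0.52 ± 0.05, adjusted p = 1.17e-09) and 1.15-fold higher in the metastatic line than in 786-O (0.20 ± 0.05, adjusted p = 0.00104). Of all genes tested, 13.7% were likewise called higher at both steps.

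*AKR1B10* encodes a reductase of retinal and of lipid-derived aldehydes that is best known from the gut. It was scarce: HK2 held 15, 21 and 20 counts, 786-O 30, 30 and 19, and the metastatic line 53, 50 and 66. These counts correspond to 0.477 ± 0.0444, 0.639 ± 0.176 and 1.51 ± 0.222 CPM (n = 3). The metastatic libraries lay above all others, and HK2 and 786-O overlapped. The gene had a mean under 50 counts, so its test, and that of *AKR1C1*, comes from a fit over the 14775 genes that average 10 counts or more, a filter chosen after the counts were seen. By that edgeR fit *AKR1B10* was 3.17-fold higher in the metastatic line than in HK2 (1.66 ± 0.22, adjusted p = 2.56e-07) and 2.36-fold higher in the metastatic line than in 786-O (1.24 ± 0.21, adjusted p = 1.84e-05). Between 786-O and HK2 the log2 fold change was 0.42 ± 0.26 (adjusted p = 0.142), and without 786-O replicate 3 it was 0.63 (adjusted p = 0.0370).

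*AKR1B15*, the close relative of *AKR1B10*, had 1, 1 and 6 counts in HK2, 2, 4 and 2 in 786-O, and 7, 9 and 0 in the metastatic line. All 3 lines overlapped, and most of its libraries were at or near the floor of 3 counts, so no fold is given. Summed with *AKR1B15*, *AKR1B10* gave log2 fold changes of 0.37 (adjusted p = 0.161) in 786-O against HK2, 1.60 (adjusted p = 1.33e-07) in the metastatic line against HK2 and 1.23 (adjusted p = 8.12e-06) in the metastatic line against 786-O.

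*AKR1C3* encodes the enzyme that makes testosterone from androstenedione and that also forms prostaglandin F from earlier prostaglandins. Its libraries stood at 10.5, 12.3 and 11.7 CPM in HK2, 3.62, 3.28 and 4.36 CPM in 786-O, and 1.06, 1.33 and 1.37 CPM in the metastatic line. The lines did not overlap and fell in the order HK2, 786-O and the metastatic line. The level was 3.06-fold lower in 786-O than in HK2 (log2 fold change −1.62 ± 0.10, adjusted p = 1.80e-12, edgeR), 9.16-fold lower in the metastatic line than in HK2 (−3.20 ± 0.12, adjusted p = 6.00e-16) and 2.99-fold lower in the metastatic line than in 786-O (−1.58 ± 0.15, adjusted p = 1.16e-08). Of the genes tested, 12.1% were called lower at both steps, and 2.4% fell at least 2-fold at both, as *AKR1C3* did.

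*AKR1C1* encodes an enzyme that inactivates progesterone. It had 77, 90 and 78 counts in HK2, 38, 40 and 47 in 786-O, and 8, 10 and 11 in the metastatic line, or 2.13 ± 0.402, 1.01 ± 0.134 and 0.258 ± 0.0342 CPM (n = 3). The lines did not overlap and had the same order as for *AKR1C3*. In the fit with the lower filter it was 2.07-fold lower in 786-O than in HK2 (−1.05 ± 0.17, adjusted p = 6.41e-06, edgeR), 7.96-fold lower in the metastatic line than in HK2 (−2.99 ± 0.24, adjusted p = 2.95e-11) and 3.85-fold lower in the metastatic line than in 786-O (−1.95 ± 0.28, adjusted p = 2.39e-06).

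*AKR1C2* encodes an enzyme that inactivates dihydrotestosterone. It had 3, 2 and 5 counts in HK2, 1, 1 and 5 in 786-O, and 0, 1 and 0 in the metastatic line. The 786-O libraries overlapped those of the other lines, and those of the metastatic line lay below HK2. Where the count was 0, the library allows up to 0.0835 CPM in metastatic replicate 1 and 0.0793 CPM in replicate 3, for counting error only, so no fold is given.

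The sum of *AKR1C1*, *AKR1C2* and *AKR1C3* does not depend on how counted reads were split among them. The sum would still miss any reads that were left out because they match several genes. It was 408 to 627 counts in HK2, 165 to 237 in 786-O, and 46 to 63 in the metastatic line, with no overlap. Its log2 fold changes were −1.51 ± 0.09 (adjusted p = 1.47e-12, edgeR) in 786-O against HK2, −3.17 ± 0.11 (adjusted p = 1.80e-16) in the metastatic line against HK2 and −1.66 ± 0.13 (adjusted p = 1.12e-09) in the metastatic line against 786-O, close to those of *AKR1C3*, which holds most of these counts.

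*AKR7A2* encodes a reductase of succinic semialdehyde, a product of GABA breakdown. Its libraries held 55.3, 59.4 and 53.7 CPM in HK2, 55.7, 55.0 and 56.3 CPM in 786-O, and 62.9, 58.5 and 58.1 CPM in the metastatic line. HK2 overlapped both other lines, and the metastatic line lay just above 786-O. None of the 3 differences passed the threshold: the log2 fold changes were −0.01 ± 0.05 in 786-O against HK2 (adjusted p = 0.817, edgeR), 0.09 ± 0.05 in the metastatic line against HK2 (adjusted p = 0.0690) and 0.10 ± 0.05 in the metastatic line against 786-O (adjusted p = 0.0606). The difference between the metastatic line and HK2 was called without HK2 replicate 2 (0.13, adjusted p = 0.0168) and with no filter (0.11, adjusted p = 0.0280).

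**Figure D2:**
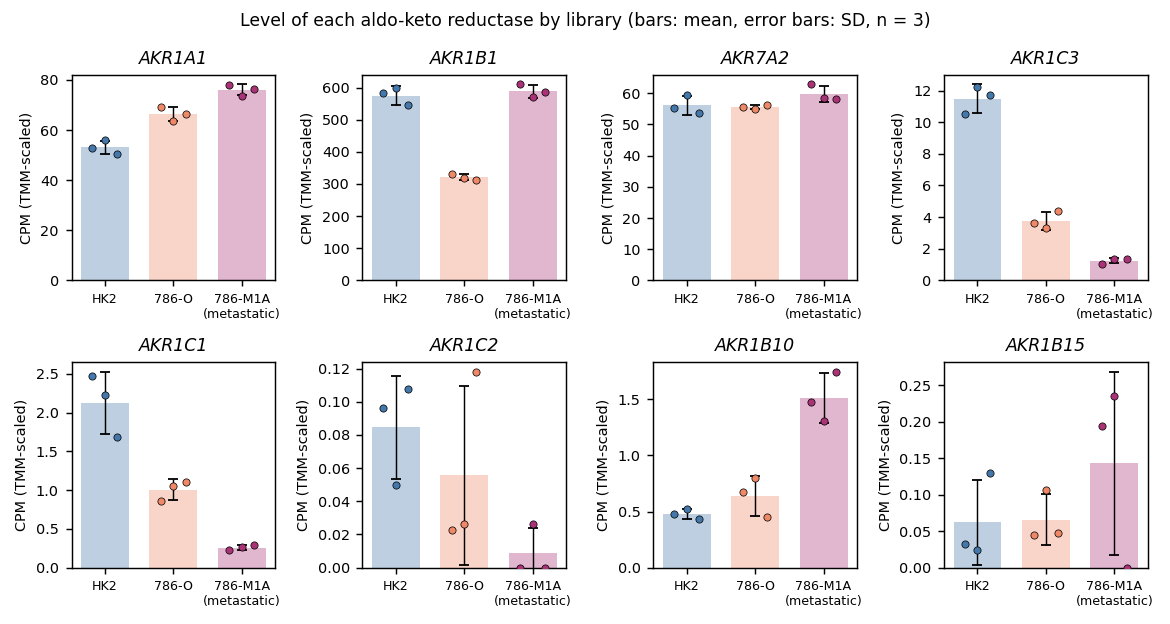
TMM-scaled CPM of the 8 genes in each of the 9 libraries, one panel per gene with its own axis from 0; bars are means and error bars SDs of 3 libraries. *AKR1A1* steps up and *AKR1C3* and *AKR1C1* step down from HK2 to 786-O to the metastatic line, *AKR1B1* dips in 786-O, and the panels of *AKR1C2* and *AKR1B15* show only a few counts.

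Of the 8 genes, 4 passed the filter of a mean of 50 counts. In 786-O against HK2 3 of the 4 were called, 1 higher and 2 lower, where 84.2% of the 12695 genes tested were called, 41.7% higher and 42.5% lower. Of the same 4, 2 were called in the metastatic line against HK2, 1 higher and 1 lower, against 85.0% of all genes, 42.0% higher and 42.9% lower. Against 786-O, 3 of the 4 were called in the metastatic line, 2 higher and 1 lower, against 56.2% of all genes, 29.0% higher and 27.1% lower. With 4 members tested, these counts are too few to tell whether they depart from the background. Calls of at least 2-fold were fewer, at 22.3%, 25.4% and 6.55% of genes in these 3 comparisons, and *AKR1C3* was among them in each. The median log2 fold change of the 4 members was −0.43, 0.06 and 0.15, and that of all genes −0.01, −0.01 and 0.01.

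With the lower filter 6 members were tested. In 786-O against HK2 4 of the 6 were called, 1 higher and 3 lower, beside 82.1% of 14775 genes, 40.0% higher and 42.1% lower. Of these 6, 4 were called in the metastatic line against HK2, 2 higher and 2 lower, beside 83.0%, 39.9% higher and 43.1% lower. Against 786-O, 5 of the 6 were called in the metastatic line, 3 higher and 2 lower, beside 52.3%, 25.7% higher and 26.6% lower. Of the 4 members tested with the main filter, 3, 2 and 4 had libraries that did not overlap between the lines, beside 85.5%, 85.0% and 61.7% of the genes tested. The 8 genes together summed to 699 ± 33.7 CPM in HK2, 448 ± 10.5 in 786-O and 728 ± 24.3 in the metastatic line. Without *AKR1B1* the sums were 123 ± 6.21, 128 ± 3.35 and 139 ± 4.39 CPM.

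**Figure D3:**
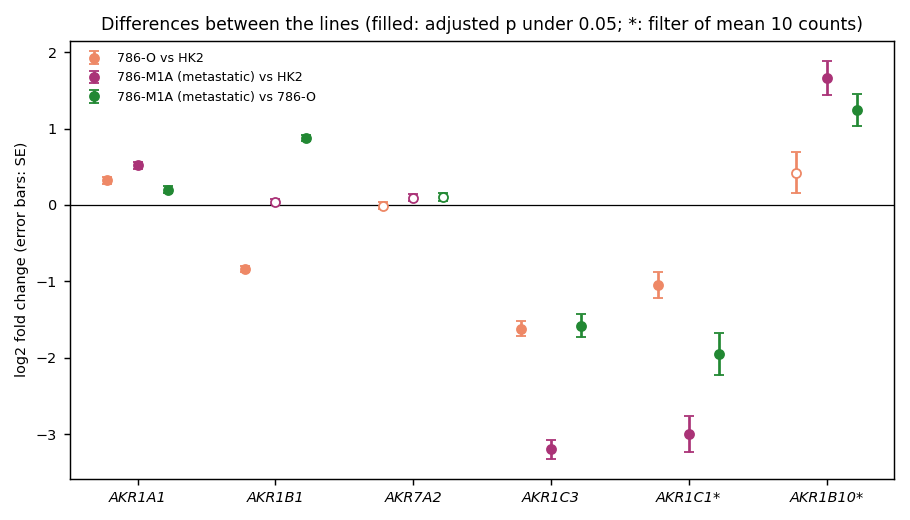
log2 fold change of the 6 members with enough counts in the 3 comparisons, with SE bars; filled points have an adjusted p under 0.05, and an asterisk marks the 2 genes tested with the lower filter. *AKR1C3* and *AKR1C1* fall in all comparisons, to −3.20 and −2.99 in the metastatic line against HK2, while *AKR1B10* reaches 1.66 there and *AKR7A2* stays near 0.

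Gene patterns were compared by the root mean square difference of log2 CPM over the 9 libraries, each gene centred on its own mean. *AKR1C1* and *AKR1C3* differed by 0.31, and their neighbour *AKR1C4* by 0.33 from *AKR1C3* and 0.43 from *AKR1C1*, while *AKR1B1* and *AKR1B10* differed by 0.68 and *AKR1B10* and *AKR1C3* by 1.96. Among 12694 other genes, those most like *AKR1C3* were *ACSF2* (0.12), *PROS1* (0.14) and *S100A2* (0.14). Those most like *AKR1B1* were *PHF19* (0.04), *FAM50A* (0.05) and *SPOCD1* (0.05). *CYBC1*, *PPP4C* and *GYG1* were nearest to *AKR1A1* (0.03 to 0.04), and *EIF2B3* and *VKORC1* were among the nearest to *AKR7A2* (0.03 each). These values describe 9 libraries of 3 lines, so any gene with like steps between the lines comes close.

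Since *AKR1C1* and *AKR1C3* were lower at both steps, the 300 bases around the start sites of the 8 genes were read from RefSeq (GRCh38.p14, 250 before and 50 after the start). Windows were found for *AKR1A1*, *AKR1B1*, *AKR7A2*, *AKR1C1*, *AKR1C2* and *AKR1C3*, and not for *AKR1B10* or *AKR1B15*. *AKR1C1*, *AKR1C2* and the downstream of 2 *AKR1C3* windows share a run of 19 bases, in capitals below, at chr10:4963326-4963355 (plus), chr10:5003921-5003950 (minus) and chr10:5094316-5094345 (plus).
*AKR1C1*: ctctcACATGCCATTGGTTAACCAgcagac
*AKR1C2*: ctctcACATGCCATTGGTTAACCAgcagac
*AKR1C3*: ctcctACATGCCATTGGTTAACCAtcagtc

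The run was picked as the longest that windows of these 3 genes share before the start, so its presence in them is not a result. It begins 84, 88 and 93 bases before the start and occurred in these 3 of 35116 promoter windows. Where they aligned, over 246 bases, the windows of *AKR1C1* and *AKR1C2* were 99.6% identical, and the downstream *AKR1C3* window was 78.6% identical to that of *AKR1C1*. The run holds a CCAAT box on the strand opposite to each gene. On either strand, CCAAT was found in all windows of *AKR1C1*, *AKR1C2*, *AKR1C3* and *AKR1B1* and in 34.6% of all promoter windows. *AKR1C4* fell as well, with log2 fold changes of −1.57 in 786-O against HK2 and −1.66 in the metastatic line against 786-O (lower filter). Its window was also searched and holds neither the run nor CCAAT. Whether the run has a part in these falls was not tested.

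The core of the antioxidant response element, to which NRF2 binds, was searched as TGACNNNGC on both strands and was present in 13.3% of all windows. It matched 3 times in each of the *AKR7A2* windows and in no other window of the 8 genes. The core of the tonicity response element (TGGAAA, 20.7% of all windows) matched in none of the windows of the 8 genes. The core of the hypoxia response element (ACGTG, 21.4% of all windows) matched 3 times for *AKR1A1*, of which 2 matches overlap on opposite strands, and once for *AKR7A2*. A TATA box (TATAAA, 11.5% of all windows) matched only in the upstream *AKR1C3* window, 26 bases before the start, among the 8 genes. No match says only that these letters are not in these windows.

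The genes around each cluster were described from those tested within 5 Mb. Of all genes tested, 41.7% were called higher and 42.5% lower in 786-O than in HK2. For the metastatic line these shares were 42.0% and 42.9% against HK2, and 29.0% and 27.1% against 786-O. The median log2 fold changes of all genes in these comparisons were −0.01, −0.01 and 0.01. Around the *AKR1C* cluster 26 other genes were tested. Of these, 23 were higher and 1 lower in 786-O than in HK2, with a median log2 fold change of 0.65, and in none was the log2 fold change as low as the −1.62 of *AKR1C3*. In the metastatic line against 786-O 4 were higher and 13 lower, with a median of −0.12, and only *PRKCQ* (−3.52) and its antisense gene *PRKCQ-AS1* (−2.35), whose reads cannot be told apart where the counting took no account of strand, fell more than *AKR1C3*. Against HK2, the metastatic line had 22 of them higher and 4 lower, with a median of 0.59, and only *PRKCQ* (−3.28) fell more than *AKR1C3*.

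Around the *AKR1B* cluster 38 other genes were tested, of which 24 were higher and 7 lower in 786-O than in HK2, with a median of 0.27. In the metastatic line against 786-O 23 were higher and 4 lower, with a median of 0.16, and 2 of the 38, *DGKI* (1.69) and *ZC3HAV1L* (1.92), had a larger log2 fold change than *AKR1B1*. Against HK2, the metastatic line had 28 of them higher and 5 lower, with a median of 0.42. The direct neighbours *SLC35B4* and *BPGM* were both higher in 786-O than in HK2 (0.54 and 0.96), where *AKR1B1* was lower.

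**Figure D4:**
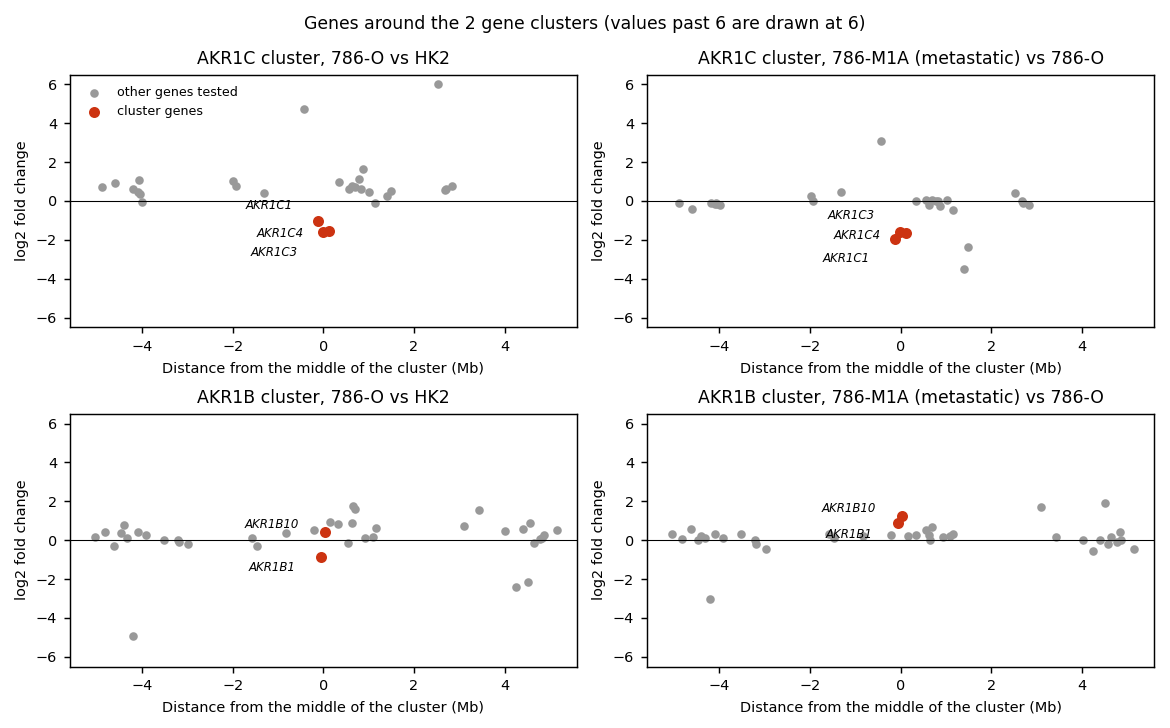
log2 fold change of the genes tested within 5 Mb of the *AKR1C* and *AKR1B* clusters against their distance from the middle of the cluster, in 786-O against HK2 and in the metastatic line against 786-O. *AKR1C1*, *AKR1C3* and *AKR1C4* lie below 0 among neighbours with a median of 0.65 in 786-O against HK2, and *AKR1B1* lies below most neighbours on the left and above most on the right.

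Other genes of the family were mostly scarce. *AKR1C4*, which encodes a steroid and bile acid enzyme of liver, had 34, 37 and 51 counts in HK2, 12, 10 and 21 in 786-O, and 1, 6 and 5 in the metastatic line. In the fit with the lower filter it was 2.96-fold lower in 786-O than in HK2 (−1.57 ± 0.27, adjusted p = 1.04e-05, edgeR) and 9.39-fold lower in the metastatic line than in HK2 (−3.23 ± 0.36, adjusted p = 1.27e-08). It was 3.17-fold lower in the metastatic line than in 786-O (−1.66 ± 0.46, adjusted p = 0.00408). Its coding sequence is 88.5% identical to that of *AKR1C3*, with 3.80% of *AKR1C3* windows shared.

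The potassium channel subunits *KCNAB1* and *KCNAB2* belong to the same protein family. *KCNAB1* was at 0.792 ± 0.191 CPM in HK2, 2.68 ± 0.248 in 786-O and 1.61 ± 0.168 in the metastatic line, called in all 3 comparisons. *KCNAB2* was at 8.0 ± 0.496, 12.2 ± 0.675 and 12.1 ± 1.55 CPM and was called higher in both carcinoma lines than in HK2. *AKR7A3*, at 1.77 ± 0.335, 1.38 ± 0.230 and 1.64 ± 0.0679 CPM, was called lower in 786-O than in HK2 (−0.37, adjusted p = 0.0454, edgeR), a call lost without HK2 replicate 2 (−0.20, adjusted p = 0.296), without 786-O replicate 1 (−0.25, adjusted p = 0.198) and under 6 other alternatives. *KCNAB3*, at 18 to 35 counts, passed in no comparison with the lower filter, and *AKR7L*, *AKR1D1*, *AKR1E2* and *AKR1C8* had at most 17 counts in any library.

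Genes around the members' reactions were put in 11 lists, which hold 171 genes, 117 of them tested. In 786-O against HK2 106 were called, 47 higher and 59 lower (90.6%, beside 84.2% of all genes). In the metastatic line against HK2 99 were called, 43 higher and 56 lower (84.6%, beside 85.0%), and in the metastatic line against 786-O 77 were called, 36 higher and 41 lower (65.8%, beside 56.2%). Their median log2 fold changes were −0.10, −0.12 and −0.01. The counts of each list below are to be read beside the shares of all genes called higher and lower given above. The 3 values in each sentence below are mean CPM in HK2, 786-O and the metastatic line.

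Downstream of aldose reductase, 4 of 5 tested genes of the polyol and fructose list were higher and 1 lower in 786-O than in HK2. *SORD*, which turns sorbitol into fructose, was at 48.9, 82.8 and 76.0 CPM, and was called in all 3 comparisons. The fructose transporter gene *SLC2A5* was at 0.401, 4.29 and 2.81 CPM, also called in all 3, and fructokinase *KHK* was at 1.55, 2.45 and 2.29 CPM, called against HK2. In the metastatic line against 786-O 1 was higher and 3 lower, with *SORD*, *SLC2A5* and *TKFC* lower and *GLYCTK* higher. *SORD* was higher in 786-O than in HK2, where *AKR1B1* was lower, and lower in the metastatic line than in 786-O, where *AKR1B1* was higher.

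Of the osmotic response list, 5 of 7 were higher and 2 lower in 786-O than in HK2, 3 higher and 3 lower in the metastatic line than in HK2, and 3 lower in the metastatic line than in 786-O. *NFAT5*, the factor that drives aldose reductase under high salt, fell at both steps, at 59.8, 36.0 and 27.6 CPM. The inositol transporter gene *SLC5A3* was at 29.4, 35.7 and 31.9 CPM, higher in 786-O than in the other lines. The taurine transporter gene *SLC6A6* was at 49.3, 83.3 and 80.9 CPM, and the betaine transporter gene *SLC6A12* at 2.90, 4.44 and 0.743 CPM. Each of these 3 was called in both comparisons with HK2, *SLC6A6* higher in both, *NFAT5* lower in both and *SLC6A12* in opposite directions.

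Around *AKR1A1*, 3 of 8 genes of glucuronate and inositol metabolism were higher and 4 lower in 786-O than in HK2, 2 higher and 2 lower in the metastatic line than in HK2, and 2 higher and 1 lower in the metastatic line than in 786-O. The inositol synthase gene *ISYNA1* was at 58.3, 2.27 and 2.46 CPM and the inositol oxygenase gene *MIOX*, whose product makes the glucuronate that *AKR1A1* reduces, at 9.17, 0.443 and 0.251 CPM. *CRYL1*, which acts after *AKR1A1* in the same route, rose instead, at 2.70, 13.6 and 13.5 CPM. All 3 were called in both comparisons with HK2. *GUSB*, which releases glucuronate, was at 76.8, 130.1 and 143 CPM and rose at both steps. The smaller differences were those of *DCXR* (18.7, 20.5 and 17.4 CPM) and *UGP2* (134, 123 and 136 CPM), both called in 786-O against either other line.

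In the methylglyoxal list 3 of 5 were higher and 2 lower in each carcinoma line than in HK2, and 2 were higher in the metastatic line than in 786-O. Glyoxalase *GLO1*, the main route of methylglyoxal removal, was at 389, 188 and 186 CPM and was lower in both carcinoma lines, as was its relative *GLOD4* at 80.9, 59.4 and 55.6 CPM. *HAGH*, which acts after it, was at 17.6, 22.7 and 25.8 CPM and rose at each step, as did *HAGHL* at 1.97, 3.39 and 5.27 CPM.

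Around *AKR7A2*, the list of succinic semialdehyde genes had 2 lower of 4 tested in 786-O than in HK2, 3 lower and 1 higher in the metastatic line than in HK2, and 3 lower in the metastatic line than in 786-O. *ABAT*, which forms succinic semialdehyde from GABA, was at 6.13, 1.54 and 0.151 CPM. *ALDH5A1*, which oxidises the aldehyde that *AKR7A2* reduces, was at 12.1, 5.27 and 2.67 CPM. Both fell at each step, while *AKR7A2* was called in no comparison. *D2HGDH*, at 7.51, 7.49 and 5.50 CPM, was called lower in the metastatic line than in the others, and *GAD1*, which makes GABA, at 1.19, 1.20 and 1.72 CPM, was called higher there than in HK2.

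Of 14 tested genes of steroid metabolism and its receptors, 5 were higher and 8 lower in 786-O than in HK2, 4 higher and 9 lower in the metastatic line than in HK2, and 3 higher and 8 lower in the metastatic line than in 786-O. The glucuronosyltransferase *UGT2B7*, which clears steroids that *AKR1C* enzymes form, was at 18.7, 1.02 and 0.499 CPM, and *HSD17B8* at 4.40, 0.339 and 0.970 CPM. The mineralocorticoid receptor gene *NR3C2* was at 3.68, 1.24 and 0.0727 CPM, the last within 1 to 5 counts per library, and the glucocorticoid receptor gene *NR3C1* was at 61.3, 203 and 171 CPM. *UGT2B7* and *NR3C2* fell at both steps, as *AKR1C3* did.

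Of 18 tested prostaglandin genes, 7 were higher and 10 lower in 786-O than in HK2, 6 higher and 10 lower in the metastatic line than in HK2, and 9 higher and 7 lower in the metastatic line than in 786-O. The prostaglandin transporter gene *SLCO2A1* was at 142, 3.39 and 0.963 CPM and cyclooxygenase *PTGS1* at 9.80, 0.694 and 0.670 CPM. *PTGES*, which makes prostaglandin E, was at 80.0, 9.41 and 35 CPM, and *PTGDS*, which makes prostaglandin D, at 0.795, 0.219 and 4.98 CPM. *PTGS2* was higher in 786-O than in either other line, at 0.499, 3.07 and 0.434 CPM. The receptor for prostaglandin F, *PTGFR*, was at 17.7, 5.52 and 3.94 CPM and fell at both steps. So did *AKR1C3*, one source of its ligand, and 12.1% of all genes tested were called lower at both. Whether the falls of *PTGFR* and *AKR1C3* are linked was not tested.

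Of 14 tested retinoid genes, 6 were higher and 7 lower in 786-O than in HK2, 3 higher and 8 lower in the metastatic line than in HK2, and 3 higher and 6 lower in the metastatic line than in 786-O. *ALDH1A1*, which oxidises the retinal that *AKR1B10* reduces, had 1 to 2 counts per library in HK2 and stood at 347 CPM in 786-O and 195 CPM in the metastatic line. *LRAT*, which stores retinol as esters, was at 4.31 CPM in HK2 and at most 7 counts in any carcinoma library. The retinol receptor gene *STRA6* fell at both steps, at 17.9, 5.56 and 0.580 CPM. *CRABP2* was at 31.3, 1.70 and 3.18 CPM, and *DHRS9* at 7.47, 10.1 and 0.496 CPM. The retinoic acid hydroxylase gene *CYP26B1* was at 0.530, 3.26 and 0.564 CPM, higher in 786-O than in either other line.

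Of 14 tested carbonyl and quinone reductases outside the family, 6 were higher and 5 lower in 786-O than in HK2, 7 higher and 4 lower in the metastatic line than in HK2, and 8 higher and 3 lower in the metastatic line than in 786-O. *CBR3* rose at both steps, at 3.29, 8.98 and 12.4 CPM, as did *CBR4*, at 15.2, 20.2 and 26.5 CPM, in the same order of lines as *AKR1A1*. *TP53I3*, a quinone reductase under p53 control, fell at both, at 25.2, 5.69 and 4.10 CPM. *DHRS4* was at 12.7, 6.74 and 8.20 CPM, lower in both carcinoma lines, and *DHRS1* at 7.33, 7.79 and 12.2 CPM, higher in the metastatic line than in the others.

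Of 29 tested genes of the NRF2 pathway, 8 were higher and 18 lower in 786-O than in HK2, 11 higher and 14 lower in the metastatic line than in HK2, and 10 higher and 7 lower in the metastatic line than in 786-O. *NFE2L2*, which encodes NRF2, fell at both steps, at 195, 174 and 160.0 CPM, and *KEAP1*, its inhibitor, was at 81.8, 104 and 105 CPM and higher in both carcinoma lines. The repressor *BACH1* was at 43.4, 38.5 and 39.2 CPM. Among its classical targets *NQO1* was at 155, 159 and 184 CPM, higher in the metastatic line than in either other line, *TXNRD1* at 834, 371 and 442 CPM, lower in both carcinoma lines, and *PIR* at 8.80, 4.37 and 2.43 CPM, lower at both steps like *AKR1C1* and *AKR1C3*. The drug transporter gene *ABCC3* was at 13.5, 53.7 and 53.1 CPM, and *ABCC2* at 1.84, 6.34 and 0.853 CPM. *MAFF*, a partner of NRF2, was at 17.8, 4.82 and 11.1 CPM, and the ferritin gene *FTL* at 1541, 879 and 700.2 CPM.

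**Figure D5:**
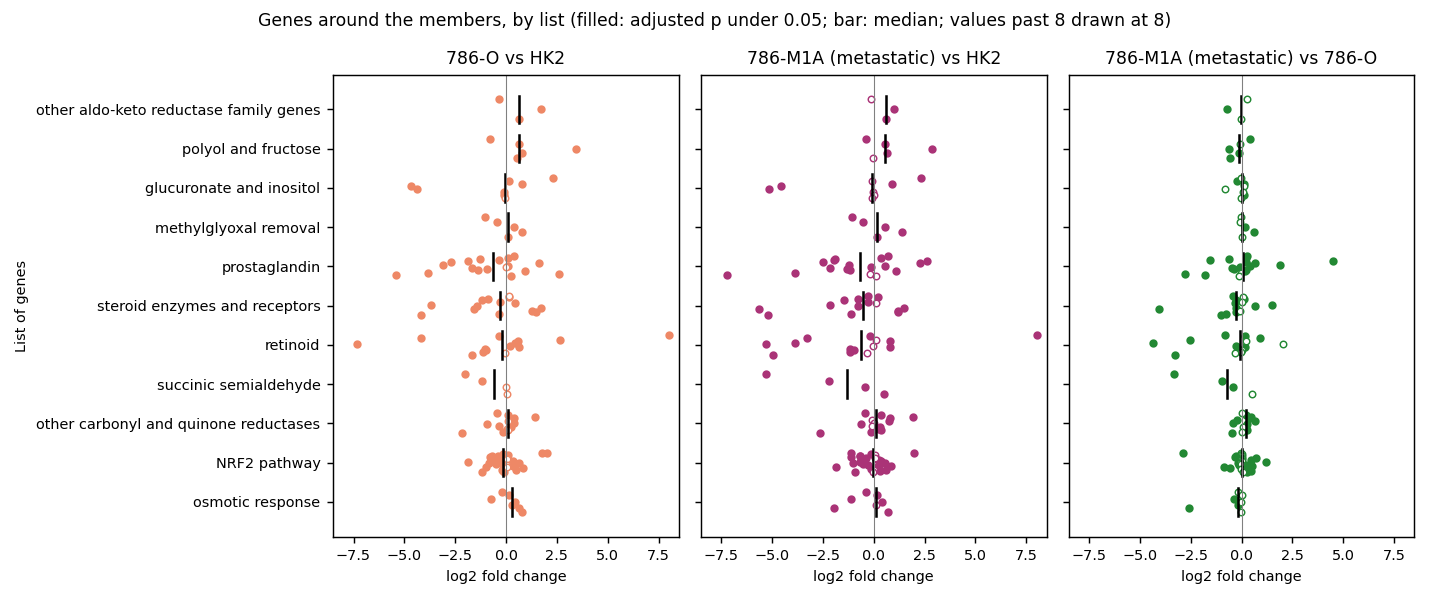
log2 fold change of every tested gene of the 11 lists in the 3 comparisons, filled where the adjusted p was under 0.05, with a bar at the list's median. The prostaglandin, steroid, retinoid and succinic semialdehyde lists have medians below 0 against HK2, down to −1.31 for succinic semialdehyde in the metastatic line. Medians nearer to 0 against HK2 are those of the glucuronate and inositol list, at −0.08 in 786-O and −0.07 in the metastatic line. The NRF2 list spreads on both sides, with medians of −0.17 and −0.04.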

How the data were processed

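RNA of 9 samples (TruSeq Stranded mRNA libraries, NextSeq, 75-cycle kit) had been sequenced by the authors. They deposited raw counts of reads per gene made with featureCounts of Rsubread on hg38 (GRCh38). The study's methods speak of more replicate dishes per line than the 3 samples that the labels give. Each sample is taken here as a separate dish. The annotation version, the strand setting and the treatment of multi-mapping reads are not given in the sources used here. Counts had no blank or total rows. Symbols were matched by NCBI gene ID (27745 of 28395 IDs).

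Counts were scaled by the trimmed mean of M values (TMM, factors 0.964 to 1.03) and tested with edgeR 4.0.16 (R 4.3.3; robust quasi-likelihood, one fit over the 3 lines, 3 contrasts, Benjamini-Hochberg over all genes, threshold 0.05), for genes averaging 50 counts or more, the study's filter. The study's own test was limma on VSN values. CPM are TMM-scaled; log2 CPM used a prior count of 2. SEs were taken from the fold change and its F statistic. Exact permutation tests of 3 against 3 libraries cannot go below p = 0.1, so none is given. Depth limits precision, and the floors cover counting error only. The SDs and SEs also hold the spread between dishes. The fit was tested on simulated data.

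The members, lists and tests were chosen with earlier results of these data known, and *AKR1B1* was among the genes that the study named from these libraries, so its pattern is not independent evidence. Genes named are the members, the other family genes, *NFE2L2*, *KEAP1*, *BACH1*, *NFAT5*, those of each list with the largest called changes (up to 3 per comparison) and the 3 genes nearest in pattern to each tested member, of which 1 is not reported here; *PTGFR*, *NQO1*, *TXNRD1* and the genes near the clusters were chosen after their values were seen. Alternatives were RLE and upper-quartile scaling, DESeq2 1.42.0, limma-voom 3.58.1, other filters, 2-line fits, a replicate block, summed paralogs and leaving out each library. Neighbouring genes within 5 Mb of the clusters were described only. Coding sequences and positions came from GENCODE 44 on GRCh38 and promoters from RefSeq (GRCh38.p14).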

Additional observations from a re-analysis of the deposited data

How the results depend on the processing

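Each line is 1 cell line in 1 medium, the libraries came from parallel dishes, and most genes differed between lines, so a call alone says little. Counts of *AKR1C2* and *AKR1B15* were too few for a fold, and those of *AKR1C1* and *AKR1B10* were tested only with the lower filter. No scaling moved the median of all genes by more than 0.057 on the log2 scale. Every call given above for *AKR1A1*, *AKR1B1*, *AKR1C3*, *AKR1C1* and *AKR1B10* was made under each alternative run for it.

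The median log2 fold change of the members in 786-O against HK2 was −0.30 with no filter, where all 8 genes enter, and −0.026 for the 5 with at least 10 counts in every library. For the metastatic line against HK2 it was 0.0056 under upper-quartile scaling. With the lower filter 4 members of 6 were called in that comparison, beside 83.0% of all genes. With no filter 6 of 8 were called. Among these were *AKR7A2* and *AKR1C2*, the latter with 3, 2 and 5 counts in HK2 and 0, 1 and 0 in the metastatic line. Against 786-O, the metastatic line had 5 calls with the lower filter, beside 52.3% of all genes, and 5 with no filter. The share of all genes called with no filter is not given here, so those counts have no background.

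Differences near 0, called in no case, changed sign. In 786-O against HK2 *AKR7A2* was at 0.0094 with no filter, and *D2HGDH* at 0.0055 with the lower filter and 0.018 with none. Under upper-quartile scaling *GAD1* was at −0.0077 in 786-O against HK2, *AKR1B1* at −0.024 and *UGP2* at −0.036 in the metastatic line against HK2, and *KEAP1* at −0.0031 in the metastatic line against 786-O. *GAD1* in 786-O against HK2 was at −0.061 with limma-voom and −0.0074 with the replicate block.

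Leaving out 1 library at a time gave ranges, in 786-O against HK2, of −0.045 to 0.031 for *AKR7A2*, −0.049 to 0.046 for *D2HGDH* and −0.41 to 0.25 for *GAD1*. For the metastatic line against HK2 they were −0.0057 to 0.055 for *AKR1B1*, −0.19 to 0.043 for *AKR7A3*, −0.023 to 0.28 for *CYP26B1*, −0.35 to 0.071 for *PTGS2*, −0.069 to 0.0019 for *TKFC* and −0.0088 to 0.049 for *UGP2*. For the metastatic line against 786-O they were −0.042 to 0.00021 for *ABCC3*, −0.028 to 0.091 for *BACH1*, −0.051 to 0.043 for *CRYL1*, −0.12 to 0.067 for *KCNAB2*, −0.036 to 0.045 for *KEAP1* and −0.11 to 0.029 for *PTGS1*. The cause was not tested in any case.

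Some called differences rested on 1 library. *BACH1* was no longer called in 786-O against HK2 without 786-O replicate 1 (adjusted p = 0.0585, edgeR), nor in the metastatic line against HK2 without HK2 replicate 3 (0.0636) or metastatic replicate 1 (0.0893). Between the metastatic line and 786-O the calls of *DHRS4* and *GLYCTK* were lost without 786-O replicate 1 (0.0693 each), that of *NFE2L2* without 786-O replicate 3 (0.0502) and that of *HAGH* without 786-O replicate 3 (0.0536) or metastatic replicate 1 (0.108). *DCXR* in 786-O against HK2, *GAD1* in the metastatic line against HK2 and *SLC5A3* in the metastatic line against 786-O each lost their call under 4 or more alternatives.

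The main test took no pairing by replicate number. Correlations of deviations lay between −0.114 and 0.140 for same-numbered libraries and between −0.109 and 0.127 for differently numbered ones. For 786-O and the metastatic line the same-numbered values were all above 0, at 0.140, 0.0355 and 0.0813. Their differently numbered values lay between −0.109 and 0.0359. With the replicate block 3, 2 and 3 members and 105, 100 and 79 listed genes were called in 786-O against HK2, the metastatic line against HK2 and the metastatic line against 786-O. The block changed no member's call; *AKR7A3* lost its call in 786-O against HK2 (adjusted p = 0.0623, edgeR), and *GAD1* gained one in the metastatic line against 786-O (0.0440).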
